A study of Homo sapiens with 24 samples.

Results

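RAB GTPase genes were taken from the gene counts by symbol, as the gene symbols made of RAB, a number and at most a letter and a further digit, so that effectors such as RAB11FIP5 were not counted. This gave 61 RAB genes among 23106 gene symbols, including RAB7L1, which is now named RAB29. Polyadenylated RNA was measured in cancer cells of 4 lines, A549 from lung, HCT116 from colon or rectum, PC3 from prostate and T47D from breast. For each line 3 libraries came from normoxic cultures (21% oxygen) and 3 from hypoxic cultures (0.5% oxygen for 16 h), so that 24 libraries formed 8 groups. None of the groups carried a transgene or a drug treatment. A549 and PC3 cells were grown in F12K medium, HCT116 cells in McCoy's 5a and T47D cells in DMEM, so line and medium cannot be told apart except between A549 and PC3 cells. The labels do not say whether the 3 replicates of a group were separate cultures, so p values cover the spread between these libraries, which may be technical.

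RAB proteins are small GTPases that mark the membranes of the secretory and endocytic pathways. Bound to GTP, a RAB recruits effectors such as tethers and motor adaptors, and the vesicle then moves, docks or fuses. Guanine nucleotide exchange factors (GEFs) load the GTP, GTPase-activating proteins (GAPs) end the active state, and a lipid added by RAB geranylgeranyl transferase holds the protein on the membrane. Hypoxia stabilises the HIF transcription factors, which bind the hypoxia response element with the core ACGTG or GCGTG.

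Library totals ranged from 22698584 to 62850747 counts, of which RAB genes took 0.228% to 0.517%. A count of 3 in a library, used as the floor, corresponds to 0.0477 to 0.132 CPM (the CPM unit of edgeR, relative to the TMM-scaled library total), and covers counting error only. The hypoxia markers CA9, VEGFA, EGLN3, BNIP3 and NDRG1 had higher levels in every hypoxic library than in every normoxic library of the same line. Of the lineage markers, ESR1, PGR, GATA3 and FOXA1 were high in T47D cells and CDX2 was highest in HCT116 cells. The lung markers NKX2-1, SFTPB and SFTPC were at or near 0 in A549 cells, CDH17, VIL1 and LGR5 were at or near 0 in HCT116 cells, and KLK3 had no count in PC3 cells. The summed level of the 3 leukocyte markers did not exceed 0.572 CPM in any library, and that of the 3 endothelial markers did not exceed 2.77 CPM. The 3 fibroblast markers summed to 10.4 to 57.1 CPM, nearly all of it from COL1A1, as COL1A2 did not exceed 0.405 CPM and DCN 0.134 CPM. COL1A1 was called higher in hypoxic A549 (log2 0.80) and PC3 cells (0.48), and its part in the results on RAB genes was not tested. Among replicates, T47D hypoxia replicate 3 and T47D normoxia replicate 3 stood farthest from the others of their group.

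In hypoxia, more RAB genes were called higher than lower in each of the 4 lines. Within a line, a gene was called when its edgeR adjusted p was below 0.05 and its fold exceeded 1.2. In A549 cells, 14 of 56 RAB genes tested were upregulated and 4 were downregulated, beside 17.6% and 17.8% of all genes tested. HCT116 cells had 16 upregulated and 9 downregulated genes of 51, with 23.3% and 27% among all genes. For PC3 cells the numbers were 10 and 3 of 53, and all genes gave 16.6% and 15.7%. T47D cells had 6 upregulated and 0 downregulated genes of 53, while all genes gave 6.55% and 6.69%. At an unadjusted p under 0.05, 5 RAB genes had lower levels in hypoxic T47D cells, and DESeq2 called 1, RAB27B, with 9.26% of all genes lower.

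**Figure D1:**
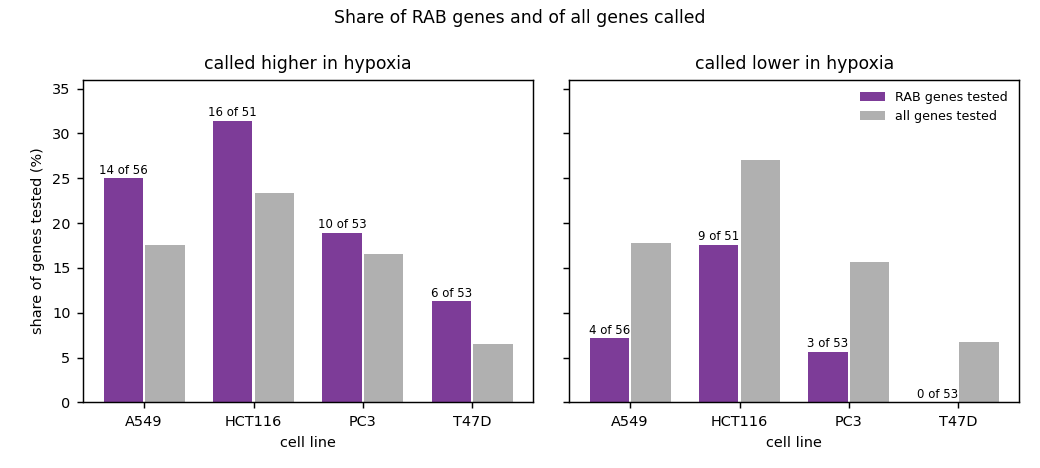
Bars give the share (%) of tested RAB genes and of all tested genes that were called higher (left) or lower (right) in hypoxia in each cell line, with the number of RAB genes above the bar. The upregulated share of RAB genes was 25%, 31.4%, 18.9% and 11.3% in A549, HCT116, PC3 and T47D cells, above the share of all genes, and the downregulated share was below that of all genes. In PC3 cells the upregulated share was near the 16.6% of all genes.

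The median log2 change of the RAB genes tested was 0.11 in A549, 0.16 in HCT116, 0.03 in PC3 and 0.15 in T47D cells, where the median of all genes lay between -0.03 and -0.01. The direction was positive for 40 of 56, 31 of 51, 28 of 53 and 38 of 53 RAB genes, in that order. Summed over all RAB genes, the level in HCT116 cells was 2481, 2552 and 2850 CPM in normoxia and 2990, 3279 and 2947 CPM in hypoxia, without overlap. PC3 sums did not overlap either, with 3071 to 3219 CPM in normoxia and 3400 to 3630 CPM in hypoxia. The sums of the 2 oxygen states overlapped in A549 cells, at 4102 to 4387 and 4271 to 4713 CPM, and in T47D cells, at 3668 to 4977 and 4334 to 5142 CPM. Counted by gene, all hypoxic libraries lay above all normoxic ones for 17 RAB genes in A549, 18 in HCT116, 15 in PC3 and 14 in T47D cells, beside 23.2%, 28.8%, 26.8% and 16.3% of all genes. All hypoxic libraries lay below for 7, 12, 10 and 5 RAB genes, beside 24.6%, 31.4%, 24.3% and 15.4%.

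Downregulated RAB genes had a lower median GC content of their transcripts than upregulated ones. The median was 40.5%, 37% and 39.3% GC in A549, HCT116 and PC3 cells, beside 54.3%, 52.5% and 55.2% for upregulated RAB genes, and all genes showed a similar gap, for example 42.7% and 54.6% in HCT116 cells. RAB26 (62.7% GC, downregulated in HCT116 cells) and RAB24 (58.6%, downregulated in HCT116 and PC3 cells) were exceptions. When each library was corrected for GC content and transcript length, the upregulated and downregulated counts became 22 and 0 in A549, 18 and 2 in HCT116, 15 and 2 in PC3 and 9 and 0 in T47D cells. The shares of all genes were then 21.4% and 9.88%, 16.7% and 18.6%, 14.2% and 9.85%, and 7.63% and 2.91%. With a block for the replicate number added, they were 25.8% and 13.2%, 20.4% and 23%, 15.3% and 10.9%, and 17.3% and 7.99%. Over the 4 lines, the correction without the block kept 40 of 46 upregulated calls and 3 of 16 downregulated calls. It was fitted to levels scaled by total counts and added to TMM, so it also takes in library scaling. With it the median of all genes was 0.09 in A549, -0.04 in HCT116, 0.02 in PC3 and 0.09 in T47D cells. For a call lost with it, GC content, length and this scaling cannot be told apart. Scaling by total counts alone moved the median of all genes to -0.13 in A549 and -0.12 in T47D cells, and gave 10 upregulated and 10 downregulated RAB genes in A549, 10 and 6 in PC3 and 5 and 3 in T47D cells. All genes then had 12.8% upregulated and 24.9% downregulated in A549, 22.4% and 25.4% in HCT116, 14.2% and 18.9% in PC3, and 4.73% and 10% in T47D cells.

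Single libraries also decided part of these counts. Without T47D normoxia replicate 1, or without normoxia replicate 2, only RAB6B was upregulated in T47D cells, and without hypoxia replicate 3 there were 3 downregulated genes. Over all genes the upregulated count in T47D cells went from 922 to 180 and 322 without these normoxic libraries, and the downregulated count from 942 to 1756 without that hypoxic one. The upregulated count in PC3 cells was 5 without normoxia replicate 1, hypoxia replicate 1 or hypoxia replicate 2, where the upregulated count over all genes also went from 2237 to between 1308 and 1362. Downregulated genes in PC3 cells numbered 6 without normoxia replicate 2, 0 without hypoxia replicate 2, and 1 without normoxia replicate 1, hypoxia replicate 1 or hypoxia replicate 3, where all genes went from 2109 to 2732, to 875, and to between 875 and 1309. In A549 cells, 2 downregulated genes were called without normoxia replicate 1, normoxia replicate 2 or hypoxia replicate 2, with 1467 to 1685 over all genes in place of 2476. When the replicate number was a block, T47D cells had 9 upregulated genes (RAB30, RAB3B and RAB40B in addition) and 1 downregulated gene, RAB27B. The block gave 11 and 3 genes in PC3 cells, where RAB15 and RAB3A joined the upregulated genes, RAB32 joined the downregulated genes, and RAB9B and RAB27A lost their calls. With this block the shares of all genes were 18% and 18% in A549, 26.8% and 29.6% in HCT116, 17.4% and 16.6% in PC3, and 9.09% and 10.5% in T47D cells.

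RAB11B, RAB20 and RAB43 were upregulated in all 4 lines, which held for 2.58% of the genes tested in all 4 (44 of them RAB genes). RAB20 is an endosomal RAB of phagosome maturation, at 13:111175413-111214069 on the minus strand of GRCh37. Its level in A549 cells was 0.633, 0.645 and 0.776 CPM in normoxia and 4.01, 2.82 and 3.54 CPM in hypoxia, an increase of 2.34 ± 0.27 (SE) on the log2 scale (5.05-fold, adjusted p = 0.000113). In HCT116 cells RAB20 went from 9.66, 8.80 and 13.3 CPM to 30.9, 41.2 and 31.2 CPM (log2 1.68 ± 0.21, adjusted p = 0.000113). The states did not overlap in either line, and A549 cells had the lowest level of RAB20 in both states. PC3 libraries held 16.3, 11.2 and 12.5 CPM in normoxia and 24.8, 19.2 and 19.8 CPM in hypoxia (0.66 ± 0.16, adjusted p = 0.0145). T47D libraries held 24.6, 23.9 and 36.4 CPM and then 51.3, 56.1 and 67.7 CPM (1.03 ± 0.21, adjusted p = 0.0101). Again every hypoxic library lay above every normoxic one. The PC3 call was lost without hypoxia replicate 1, and the T47D call without normoxia replicate 1 or 2.

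RAB11B, a RAB of the recycling endosome, lies at 19:8454865-8469318 on the plus strand of GRCh37. HCT116 cells had 63.5, 57.5 and 63.9 CPM of RAB11B in normoxia and 111, 135 and 119 CPM in hypoxia (log2 0.96 ± 0.18, adjusted p = 0.000855). In T47D cells the levels were 42.2, 49.2 and 62.4 CPM and then 90.1, 96.5 and 113 CPM (0.94 ± 0.20, adjusted p = 0.0123). The fold change was 1.94 in HCT116 and 1.92 in T47D cells. A549 cells gave 82.7, 76.4 and 89.9 CPM against 129, 128 and 130 CPM (0.64 ± 0.10, adjusted p = 0.000927). PC3 cells had the smallest change, from 94.5, 101 and 87.5 CPM to 124, 133 and 118 CPM (0.38 ± 0.09, adjusted p = 0.0131). The 2 states did not overlap in any line, and mean normoxic levels were highest in PC3 and lowest in T47D cells. The call was lost in PC3 cells without normoxia replicate 1 or hypoxia replicate 2, and in T47D cells without normoxia replicate 1 or 2.

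RAB43, a RAB of the Golgi, lies at 3:128806412-128841644 on the minus strand. Its largest change was in HCT116 cells, from 6.93, 6.74 and 8.19 CPM to 18.0, 25.5 and 20.4 CPM (log2 1.53 ± 0.21, adjusted p = 0.00016). PC3 cells had 36.8, 35.3 and 28.0 CPM in normoxia and 79.5, 58.8 and 54.3 CPM in hypoxia (0.92 ± 0.15, adjusted p = 0.00375). Every normoxic PC3 library thus held more RAB43 than any hypoxic library of the other lines. In A549 cells 11.6, 8.97 and 11.8 CPM became 18.8, 18.4 and 17.1 CPM (0.75 ± 0.14, adjusted p = 0.002). In T47D cells the values were 9.39, 11.4 and 12.8 CPM and 18.7, 22.9 and 18.1 CPM (0.81 ± 0.20, adjusted p = 0.0241). No line had overlapping states. The T47D call was lost without normoxia replicate 1 or 2 or hypoxia replicate 1 or 2, and with the GC and length correction (log2 0.57, adjusted p = 0.0597) or scaling by total counts.

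**Figure D2:**
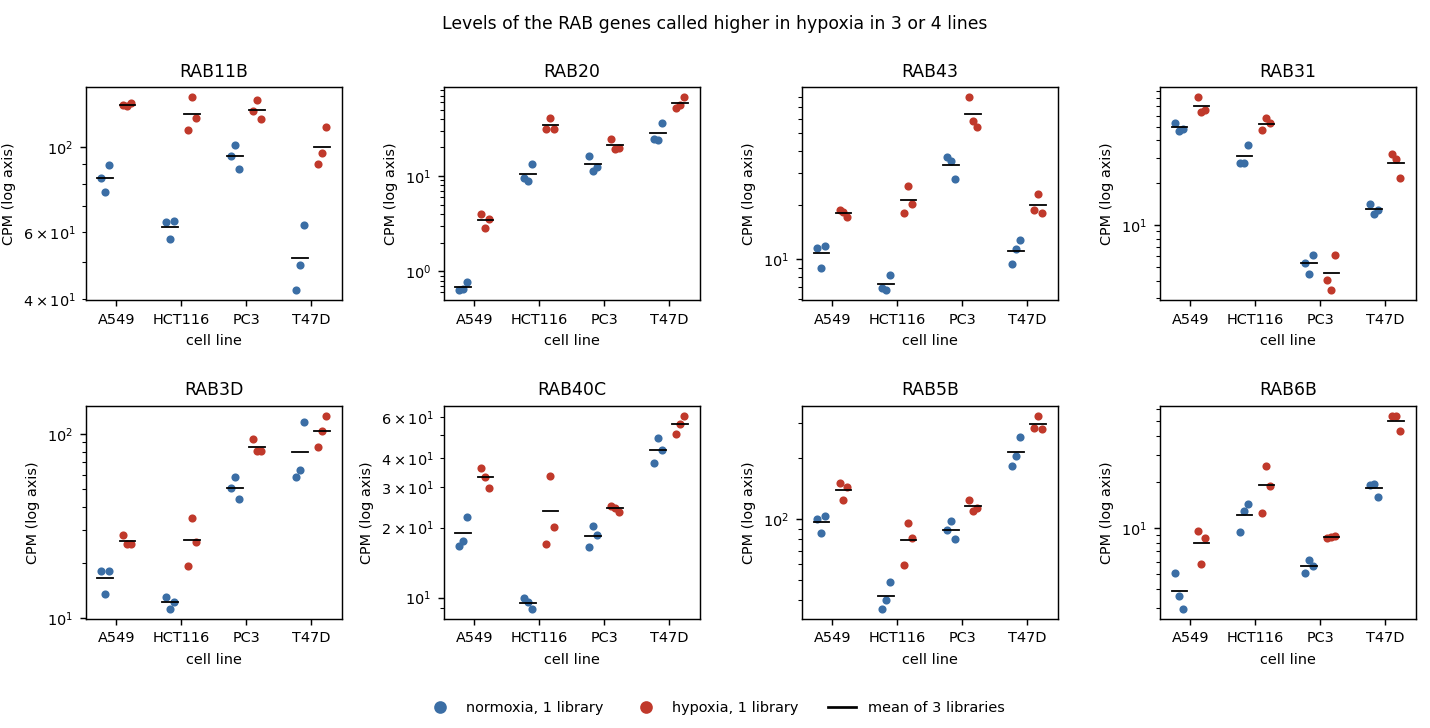
Points give the level (CPM, log axis) of 8 RAB genes in each library, blue in normoxia and red in hypoxia, with the mean of 3 libraries as a bar, for each cell line. RAB11B, RAB20 and RAB43 show red points above all blue points in the 4 lines, while RAB31 overlaps in PC3, RAB3D in T47D and RAB6B in HCT116 cells.

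Promoters were read from RefSeq (GRCh38.p14) for the stretch from 250 bases before to 50 bases after the gene start, which matched 48 of the 61 RAB genes. The letters ACGTG and GCGTG, searched on both strands with overlapping matches counted, were present in 26 of the 48 (54.2%), in 55.9% of the promoters of genes in the count files and in 48.4% of all promoters. Of the 8 RAB genes upregulated in at least 3 lines, 7 had a promoter, RAB20 being the one without, and 3 of them held a match (42.9%). Among RAB genes upregulated in any line it was 9 of 19 (47.4%), and 16 of 28 (57.1%) among tested RAB genes upregulated in none. The difference between these shares was not tested. The 250 bases before the start are shown for RAB11B (chr19:8390110-8390359, plus strand) and RAB43 (chr3:129121923-129122172, minus strand), which were upregulated in all 4 lines and hold no match, and for RAB31 (chr18:9708051-9708300, plus strand) and RAB40C (chr16:589107-589356, plus strand), which were upregulated in 3 lines and hold 2 matches each. Capitals mark the matches, and the CACGTG of RAB31 counts once on each strand. A match is given as letters in the sequence and not as a binding site.
RAB11B: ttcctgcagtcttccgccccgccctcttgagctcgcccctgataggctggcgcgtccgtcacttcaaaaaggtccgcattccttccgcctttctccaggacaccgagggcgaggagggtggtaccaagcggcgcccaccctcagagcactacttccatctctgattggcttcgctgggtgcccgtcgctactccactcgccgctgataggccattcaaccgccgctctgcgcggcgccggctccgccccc
RAB43: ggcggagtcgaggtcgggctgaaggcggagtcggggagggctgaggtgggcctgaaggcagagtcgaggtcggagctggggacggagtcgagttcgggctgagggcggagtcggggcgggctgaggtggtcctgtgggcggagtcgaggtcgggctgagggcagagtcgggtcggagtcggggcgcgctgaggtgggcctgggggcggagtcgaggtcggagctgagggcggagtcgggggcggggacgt
RAB31: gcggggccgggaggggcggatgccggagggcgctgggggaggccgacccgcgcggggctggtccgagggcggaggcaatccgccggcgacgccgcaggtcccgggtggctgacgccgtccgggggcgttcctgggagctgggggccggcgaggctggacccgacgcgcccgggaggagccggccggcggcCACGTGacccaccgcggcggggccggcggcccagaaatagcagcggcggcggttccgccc
RAB40C: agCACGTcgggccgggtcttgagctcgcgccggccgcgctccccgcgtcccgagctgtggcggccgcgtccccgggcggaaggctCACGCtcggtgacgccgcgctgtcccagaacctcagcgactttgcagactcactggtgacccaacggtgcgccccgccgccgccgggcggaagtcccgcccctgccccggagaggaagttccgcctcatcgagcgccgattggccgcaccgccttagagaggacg

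Upregulation in 3 lines was found for RAB31, RAB3D, RAB40C, RAB5B and RAB6B. With the 3 genes above, 8 RAB genes were upregulated in at least 3 lines, where the share of all genes was 9.13%. No RAB gene was downregulated in at least 3 lines, as 10.5% of all genes were, 3.36% of them in all 4. The remaining RAB genes comprised 4 upregulated in 2 lines, 11 upregulated in 1 line, 4 downregulated in 2 lines and 8 downregulated in 1 line, where RAB9A and RAB26 count in both directions, and 28 had no call in any line, of which RAB3C and RAB44 had too few counts to be tested at all. Among these 28 genes the changes farthest from 0 were those of RAB33A in A549 cells (log2 1.21) and RAB40A in PC3 cells (-1.29), neither of which passed the test.

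**Figure D3:**
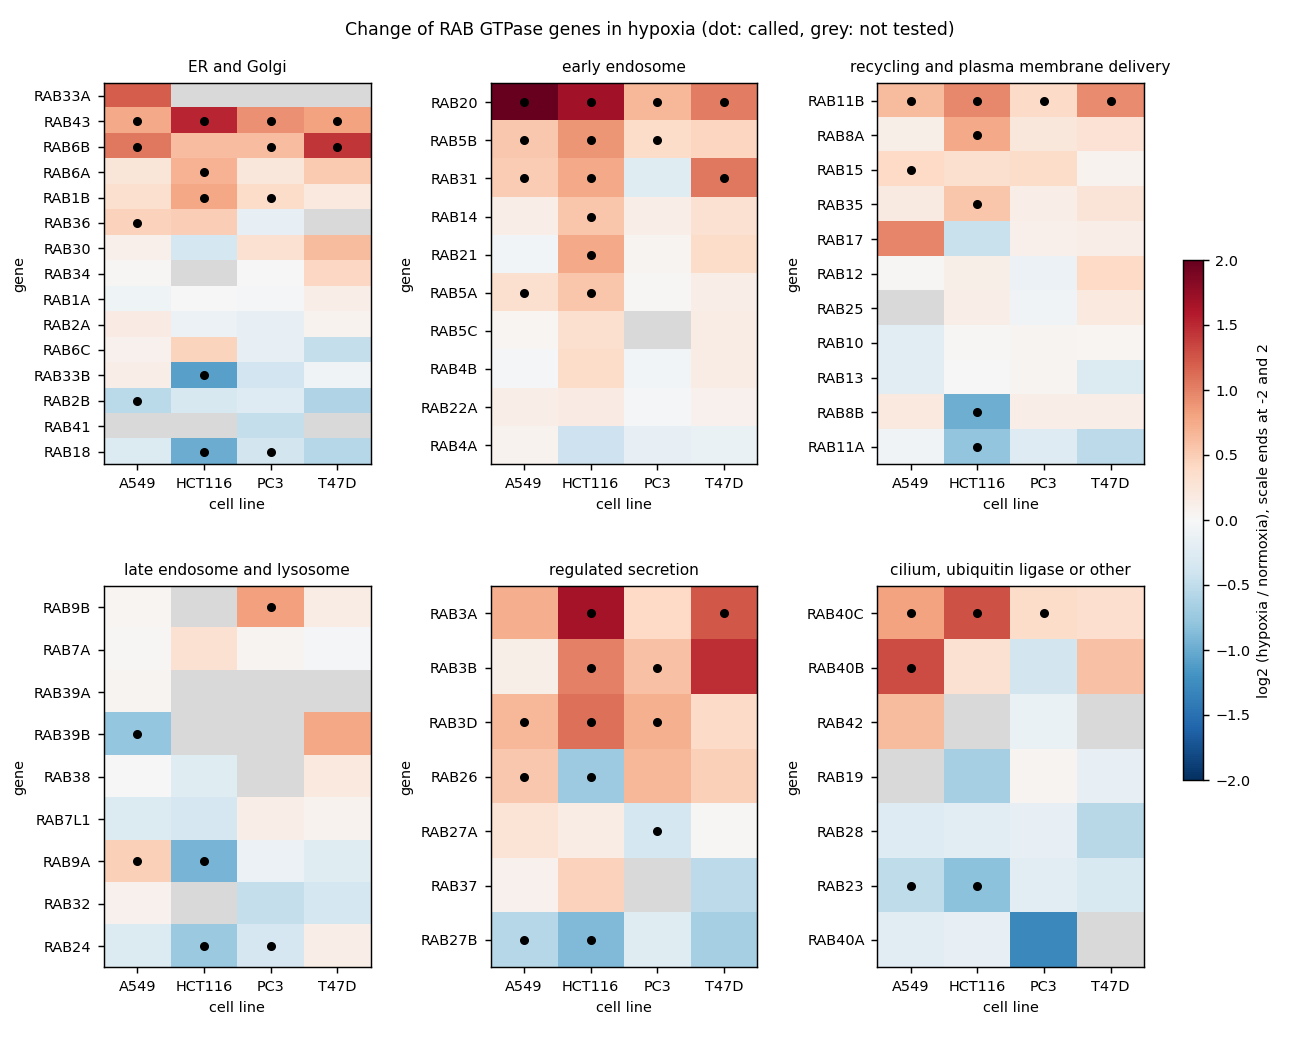
Colors give the log2 change in hypoxia of each RAB gene tested in any line (rows, by role) in each line (columns), from blue (lower) to red (higher), with black dots for calls and grey where a gene was not tested. RAB20 in A549 cells, at 2.34, lies past the end of the color scale, and the early endosome group has no called decrease.

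Among the RABs of the endoplasmic reticulum and Golgi, 3 of 14 tested were upregulated in A549, 3 of 12 in HCT116, 3 of 14 in PC3 and 2 of 12 in T47D cells, beside 17.6%, 23.3%, 16.6% and 6.55% of all genes. Besides RAB43, RAB6B stood out, the isoform of the Golgi regulator RAB6 that is known from neurons. In T47D cells its level was 19.0, 19.4 and 15.9 CPM in normoxia and 53.8, 53.6 and 42.7 CPM in hypoxia (log2 1.43 ± 0.20, 2.7-fold, adjusted p = 0.00106), with no overlap and with the call kept in each of the 6 fits without 1 library. RAB6B rose by 1.05 ± 0.24 in A549 cells and 0.61 ± 0.13 in PC3 cells (adjusted p = 0.00557 and 0.00954). In HCT116 cells its log2 change was 0.61 ± 0.26 with overlapping states (adjusted p = 0.0657). RAB1B, which acts between the endoplasmic reticulum and the Golgi, was upregulated in HCT116 (0.78 ± 0.20) and PC3 cells (0.36 ± 0.11). Its PC3 call was lost without normoxia replicate 1, hypoxia replicate 1 or hypoxia replicate 2 and with the GC and length correction (adjusted p = 0.0653).

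RAB18, a RAB of lipid droplets and the endoplasmic reticulum, was downregulated in HCT116 and PC3 cells. HCT116 libraries held 103, 141 and 118 CPM in normoxia and 68.2, 54.2 and 61.6 CPM in hypoxia (log2 -1.0 ± 0.20, adjusted p = 0.00142). The PC3 values were 69.4, 67.4 and 72.4 CPM and 54.3, 53.5 and 57.3 CPM (-0.36 ± 0.09, adjusted p = 0.0125). Hypoxic libraries lay below normoxic ones in A549 and T47D cells too, where the change of -0.27 ± 0.11 and -0.57 ± 0.21 did not pass (adjusted p = 0.072 and 0.0933). RAB33B, a Golgi RAB also linked to autophagy, fell by 1.08 ± 0.23 in HCT116 cells and RAB2B by 0.54 ± 0.18 in A549 cells, where its states overlapped and the call was lost without normoxia replicate 1 or 2 or hypoxia replicate 2 or 3. RAB18 transcripts have 36.7% GC and RAB33B transcripts 35.6%. With the GC and length correction none of the 3 genes kept its call, with log2 changes of -0.37 and -0.08 for RAB18, -0.21 for RAB33B and -0.26 for RAB2B.

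Early endosome RABs held no called decrease in any line. The downregulated shares of all genes were 17.8%, 27%, 15.7% and 6.69% in A549, HCT116, PC3 and T47D cells. Of these RABs, 4 of 10 were upregulated in A549, 2 of 9 in PC3 and 2 of 10 in T47D cells. The upregulated shares of all genes were 17.6%, 16.6% and 6.55% there, and the group medians were 0.14, 0.03 and 0.23. In HCT116 cells 6 of 10 were upregulated, beside 23.3% of all genes, with a group median of 0.55 where all genes had -0.03. These were RAB20, RAB5A, RAB5B, RAB14, RAB21 and RAB31, all of which kept the call with the GC and length correction. Of these, RAB14 lost it without hypoxia replicate 2 or 3 and with total-count scaling, and RAB5A without normoxia replicate 2 or hypoxia replicate 2 or 3. RAB5B, one of the RAB5 paralogs that drive early endosome fusion, went from 36.1, 40.1 and 49.0 CPM to 59.3, 96.2 and 80.9 CPM there (0.89 ± 0.21, adjusted p = 0.00355). It also rose in A549 cells by 0.54 ± 0.12 (adjusted p = 0.00455) and in PC3 cells by 0.36 ± 0.10 (adjusted p = 0.0199), the last call being lost without normoxia replicate 1 or any 1 of the hypoxic libraries.

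RAB31, which acts between the trans-Golgi network and endosomes, was upregulated in A549, HCT116 and T47D cells. The T47D libraries held 14.2, 12 and 12.8 CPM in normoxia and 31.8, 29.5 and 21.6 CPM in hypoxia (log2 1.06 ± 0.21, 2.08-fold, adjusted p = 0.00876). In HCT116 cells 27.7, 27.7 and 36.9 CPM became 47.5, 57.7 and 53.3 CPM (0.76 ± 0.19, adjusted p = 0.00436). A549 cells showed 53.7, 47.1 and 48.6 CPM and 81.6, 63.9 and 65.8 CPM (0.51 ± 0.12, adjusted p = 0.0072). These states did not overlap. In PC3 cells RAB31 had 5.40, 4.46 and 6.16 CPM in normoxia and 4.03, 3.43 and 6.13 CPM in hypoxia, an overlap with a log2 change of -0.25 ± 0.23 (adjusted p = 0.428). The T47D call was lost without normoxia replicate 1 or 2.

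Of the RABs of recycling and delivery to the plasma membrane, RAB11B was joined in HCT116 cells by RAB8A and RAB35, which act in polarized delivery and in fast recycling. In the same cells the paralogs RAB11A and RAB8B were downregulated. RAB11A had 185, 258 and 222 CPM in normoxia and 126, 145 and 122 CPM in hypoxia (log2 -0.79 ± 0.20, adjusted p = 0.00603), while RAB11B rose by 0.96. RAB8B went from 44.6, 65.7 and 54.3 CPM to 24.6, 33.8 and 27.1 CPM (-0.97 ± 0.21, adjusted p = 0.00197), while RAB8A went from 84.2, 57.0 and 80.5 CPM to 145, 116 and 119 CPM (0.76 ± 0.20, adjusted p = 0.00756). Within each of these pairs the states of each gene did not overlap. The transcripts of RAB11A and RAB8B have 37% and 34.9% GC, and those of RAB11B and RAB8A have 63.1% and 52.2%. With the GC and length correction the decreases became -0.18 and -0.11 (adjusted p = 0.467 and 0.684), while RAB11B kept 0.78 and RAB8A 0.64, both called. The RAB11A call was also lost without hypoxia replicate 3, and the RAB35 call with the GC and length correction. RAB15 was upregulated in A549 cells alone of the 4 fits (0.40 ± 0.11), and the difference between lines did not pass for it. With the replicate block RAB15 was also upregulated in PC3 cells (0.37, adjusted p = 0.045).

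Of the late endosome and lysosome RABs, 1 of 9 tested was upregulated and 1 downregulated in A549 cells. In HCT116 cells 2 of 5 were downregulated and 0 upregulated. PC3 cells had 1 of each among 6 tested, and T47D cells none among 8. The upregulated and downregulated shares of all genes were 17.6% and 17.8%, 23.3% and 27%, 16.6% and 15.7%, and 6.55% and 6.69% in these lines. RAB9A, which returns receptors from late endosomes to the trans-Golgi network, was called in opposite directions, as were 1.26% of the genes tested in all 4 lines. Its level was 26.4, 26.8 and 26.2 CPM in normoxic and 32.2, 33.0 and 44.2 CPM in hypoxic A549 cells (log2 0.47 ± 0.13, adjusted p = 0.0143). In HCT116 cells it was 32.1, 38.0 and 23.1 CPM and then 14.6, 19.7 and 16.0 CPM (-0.93 ± 0.23, adjusted p = 0.00467). Neither line had overlapping states. With the GC and length correction the A549 increase was 0.91 and the HCT116 change -0.10 (adjusted p = 0.765).

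RAB24, which is linked to autophagy, was downregulated in HCT116 (-0.74 ± 0.25) and PC3 cells (-0.34 ± 0.10), but 58.3% of its transcript overlaps MXD3 on the same strand, so its counts are uncertain. Its HCT116 call was lost without normoxia replicate 2 or 3 or hypoxia replicate 1 or 3, and its PC3 call without normoxia replicate 1 or any 1 of the hypoxic libraries. RAB39B was downregulated in A549 cells (-0.78 ± 0.26), at 4.33, 3.79 and 2.81 CPM in normoxia and 2.69, 1.79 and 1.84 CPM in hypoxia. RAB9B was upregulated in PC3 cells (0.82 ± 0.28) from 1.84, 2.87 and 3.35 CPM to 6.85, 3.84 and 4.0 CPM, a call that was lost with the replicate block and without normoxia replicate 1 or 2 or any 1 of the hypoxic libraries. The RAB39B call was lost without normoxia replicate 1 or 2 or hypoxia replicate 2 or 3 and with the GC and length correction. RAB7A, the main RAB of late endosomes, had no call.

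The RABs of regulated secretion moved in both directions. RAB3A, RAB3B and RAB3D, which act at secretory vesicles before exocytosis, were upregulated in 2, 2 and 3 lines. With the replicate block RAB3A was also upregulated in PC3 cells and RAB3B in T47D cells. RAB3A in HCT116 cells had 5.66, 5.33 and 7.05 CPM in normoxia and 14.4, 27.7 and 16.0 CPM in hypoxia (log2 1.66 ± 0.26, 3.17-fold, adjusted p = 0.000267). In T47D cells it had 1.09, 1.38 and 2.15 CPM and 2.93, 3.69 and 4.48 CPM (1.24 ± 0.34, adjusted p = 0.0333), a call that was lost without normoxia replicate 1 or 2 or hypoxia replicate 2. The states of RAB3A did not overlap in these lines, and 11% of its transcript overlaps MPV17L2 on the other strand. RAB3B rose from 48.8, 29.5 and 42.6 CPM to 86.4, 67.4 and 91.2 CPM in HCT116 cells (1.0 ± 0.22, adjusted p = 0.00229) and by 0.59 ± 0.12 in PC3 cells (adjusted p = 0.00741). RAB3D rose by 0.67 ± 0.13 in A549, 1.10 ± 0.22 in HCT116 and 0.71 ± 0.11 in PC3 cells, and each call was kept in every fit without 1 library. T47D cells had overlapping RAB3D levels, at 58.0, 63.7 and 116 CPM and 84.7, 103 and 125 CPM (0.38 ± 0.26, adjusted p = 0.337).

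RAB27B, which tethers secretory and exosome-bearing compartments at the plasma membrane, was downregulated in A549 and HCT116 cells. A549 libraries held 94.6, 96.3 and 88.8 CPM in normoxia and 54.6, 58.5 and 74.2 CPM in hypoxia (log2 -0.57 ± 0.12, adjusted p = 0.00404). HCT116 levels were 5.83, 11.3 and 10.1 CPM and 4.48, 3.58 and 6.99 CPM, which overlap (-0.89 ± 0.32, adjusted p = 0.0317). T47D levels did not overlap, at 74.0, 47.7 and 75.7 CPM and 39.7, 44.7 and 42.4 CPM (-0.66 ± 0.21, adjusted p = 0.0537). This T47D decrease was called with the replicate block. The changes were -0.29 in A549 and -0.28 in HCT116 cells with the GC and length correction, and neither was called. The HCT116 call was also lost without normoxia replicate 2 or 3 or hypoxia replicate 1 or 2. Its paralog RAB27A was called lower in PC3 cells (-0.35 ± 0.12, adjusted p = 0.0472), a call lost with the replicate block and in each of the 6 fits without 1 library.

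RAB26, a RAB of secretory granules, was the other gene called in opposite directions. A549 cells had 10.9, 7.57 and 7.69 CPM in normoxia and 13.3, 11.1 and 13.5 CPM in hypoxia (log2 0.54 ± 0.17, adjusted p = 0.0246). HCT116 cells had 14.7, 28.2 and 23.7 CPM and 11.4, 15.2 and 14.6 CPM (-0.72 ± 0.25, adjusted p = 0.0267), with an overlap in normoxia replicate 1. Both directions kept their call with the GC and length correction (0.54 and -0.94). Each was lost in 4 of the 6 fits without 1 library, in A549 cells without normoxia replicate 2 or 3 or hypoxia replicate 1 or 3 and in HCT116 cells without the same 4 replicates of that line.

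Among the remaining RABs, RAB40C and RAB40B belong to a subfamily that joins cullin ubiquitin ligases through a SOCS box. RAB40B was upregulated in A549 cells, from 9.04, 8.19 and 9.08 CPM to 22.2, 19.4 and 23.6 CPM (log2 1.31 ± 0.13, 2.48-fold, adjusted p = 3.01e-05). With the replicate block RAB40B was also upregulated in T47D cells. In PC3 cells it had 9.07, 7.65 and 9.30 CPM in normoxia and 6.27, 7.53 and 6.77 CPM in hypoxia (-0.36 ± 0.15, adjusted p = 0.0856). The hypoxic libraries therefore lay above the normoxic ones in A549 cells and below them in PC3 cells, where the change was called only with the GC and length correction (-0.46, adjusted p = 0.0496). RAB40C rose from 16.7, 17.5 and 22.3 CPM to 36.3, 33.1 and 29.7 CPM in A549 cells (0.81 ± 0.14, adjusted p = 0.00124). In HCT116 cells it went from 9.96, 9.53 and 8.91 CPM to 17.0, 33.5 and 20.1 CPM (1.28 ± 0.25, adjusted p = 0.000984). It rose by 0.37 ± 0.11 in PC3 cells (adjusted p = 0.0249). The states did not overlap in these 3 lines. RAB40C transcripts have 65.3% GC, and with the GC and length correction the HCT116 and PC3 calls were lost (0.71 and 0.14, adjusted p = 0.0502 and 0.347). The PC3 call was also lost without normoxia replicate 1 or any 1 of the hypoxic libraries.

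RAB23, a regulator of Hedgehog signalling and the cilium, was downregulated in A549 (-0.51 ± 0.12) and HCT116 cells (-0.82 ± 0.19). HCT116 levels were 33.1, 43.0 and 40.1 CPM in normoxia and 23.3, 20.2 and 23.2 CPM in hypoxia, without overlap. Both calls were lost with the GC and length correction (adjusted p = 0.193 and 0.188). Moreover, 58.8% of its transcript overlaps BAG2 on the other strand, and the strand setting of the counting is not given in the sources used here, so reads of the 2 genes cannot be told apart.

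The change in hypoxia differed between lines for 11 of 59 RAB genes (18.6%), in an edgeR test of the interaction of line and hypoxia over 24 libraries that called 18.3% of all genes. RAB40B had the smallest adjusted p (0.00142), followed by RAB20 (0.00323), RAB8B (0.00331), RAB31 (0.00892) and RAB33B (0.0167). RAB8B and RAB33B stood apart in HCT116 cells, with log2 changes of -0.97 and -1.08, where the other lines lay between 0.13 and 0.19 for RAB8B and between -0.38 and 0.13 for RAB33B. RAB31 stood apart in PC3 cells. The changes of RAB20 were positive in all lines and differed in size. With the replicate block 18 RAB genes differed between lines, beside 22.9% of all genes, DESeq2 called 19, beside 29.5%, and with the GC and length correction 7 did, beside 14.8%, without RAB33B, RAB9A, RAB40C, RAB3A, RAB3B and RAB11B. The count was 4 without HCT116 normoxia replicate 2, 5 without HCT116 hypoxia replicate 3, and 7 without HCT116 hypoxia replicate 2 or PC3 normoxia replicate 2. Counts over all genes in these fits are not given here, so a change particular to RAB genes cannot be read from them.

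**Figure D4:**
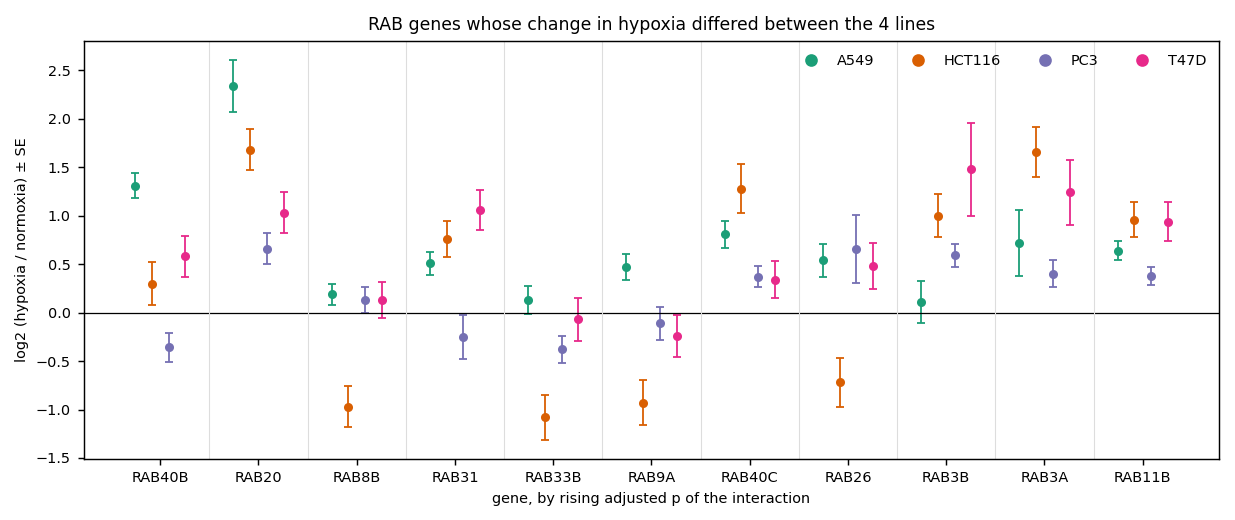
Points give the log2 change in hypoxia (± SE, 3 against 3 libraries) in each line for the 11 RAB genes that differed between lines, from the smallest to the largest adjusted p. RAB40B is highest in A549 cells at 1.31 and below 0 in PC3 cells, and RAB8B, RAB33B, RAB9A and RAB26 are below 0 in HCT116 cells.

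In normoxia, 54 of 58 RAB genes tested differed between the 4 lines (93.1%), as did 93.5% of all genes. The exceptions were RAB27A, RAB40B, RAB7A and RAB9A. RAB7A had the most even level, at 205 ± 11.5, 208 ± 45.4, 206 ± 16.4 and 229 ± 46.8 CPM (SD, n = 3) in A549, HCT116, PC3 and T47D cells. Per kilobase of transcript, the highest mean levels over the 12 normoxic libraries belonged to RAB1B (183 CPM per kb), RAB1A (110), RAB5C (100), RAB10 (98.8) and RAB7A (97), which serve the endoplasmic reticulum to Golgi step, early endosomes, plasma membrane delivery and late endosomes. Their order differed by line, with RAB10 first in A549 cells at 214 CPM per kb, RAB1A first in HCT116 cells at 100, and RAB1B first in PC3 and T47D cells at 238 and 309.

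Some RAB genes were nearly confined to part of the lines. RAB5C had 284 ± 26.7 CPM in A549, 123 ± 21.7 CPM in HCT116 and 252 ± 64.3 CPM in T47D cells (SD, n = 3), but no count in any of the 6 PC3 libraries, where the genes on either side of it had none either. A549 and T47D cells did not differ in RAB5C (adjusted p = 0.398). In PC3 cells its paralogs RAB5A and RAB5B were present at 71.6 and 88.8 CPM. RAB32, which acts at lysosome-related organelles and mitochondria, had no count in any of the 6 HCT116 libraries, and 46.0 ± 6.21, 43.9 ± 12.8 and 40.4 ± 6.63 CPM in A549, PC3 and T47D cells, which did not differ from each other (adjusted p from 0.387 to 0.965). RAB25, the epithelial relative of RAB11, had at most 1 count in an A549 library, and 11.9 ± 0.112, 49.7 ± 6.29 and 141 ± 24.9 CPM in PC3, HCT116 and T47D cells, in rising order with each step significant. RAB38, a relative of RAB32, had at most 1 count in a normoxic PC3 library and at most 9 in a hypoxic one, 2.08 ± 0.346 CPM in A549 cells, and 18.8 ± 3.88 and 18.5 ± 2.37 CPM in HCT116 and T47D cells, which did not differ (adjusted p = 0.755).

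RAB34, a RAB of the Golgi and of early cilium formation, had 171 ± 7.7 CPM in A549 cells, 63.5 ± 3.5 in PC3 cells, 29.4 ± 4.58 in T47D cells and 0.144 ± 0.0316 in HCT116 cells (SD, n = 3). RAB36 followed the order A549, HCT116, PC3 and T47D, from 10.6 ± 1.65 to 0.0734 ± 0.0539 CPM, with no significant step between HCT116 and PC3 cells (adjusted p = 0.0624). RAB3B had 66.9 ± 24.5, 40.3 ± 9.86 and 33.4 ± 5.66 CPM in A549, HCT116 and PC3 cells but 0.38 ± 0.167 CPM in T47D cells. RAB17, an epithelial RAB of apical transport, had 0.119 ± 0.111 CPM in A549 cells and 14.4 ± 0.955, 23.0 ± 0.945 and 30.4 ± 3.42 CPM in HCT116, PC3 and T47D cells, of which the last pair did not differ (adjusted p = 0.201). Both RAB25 and RAB17 were thus lowest in A549 cells. Of the epithelial markers, EPCAM was also lowest there, at 2.5 to 5.82 CPM in normoxia against 129 or more in the other lines. KRT18 was instead highest in A549 cells, at 2520 to 3330 CPM, against 325 to 571 in HCT116, 945 to 1130 in PC3 and 1340 to 2360 in T47D cells. KRT8 was at 3990 to 5750 CPM in A549 cells, against 802 to 1570, 1240 to 1420 and 3410 to 6780. The part of these markers in the RAB levels was not tested. RAB36 was called higher in hypoxic A549 cells (log2 0.46 ± 0.16), a call lost without normoxia replicate 1 or 2 or hypoxia replicate 1 or 2, with total-count scaling and with the GC and length correction.

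**Figure D5:**
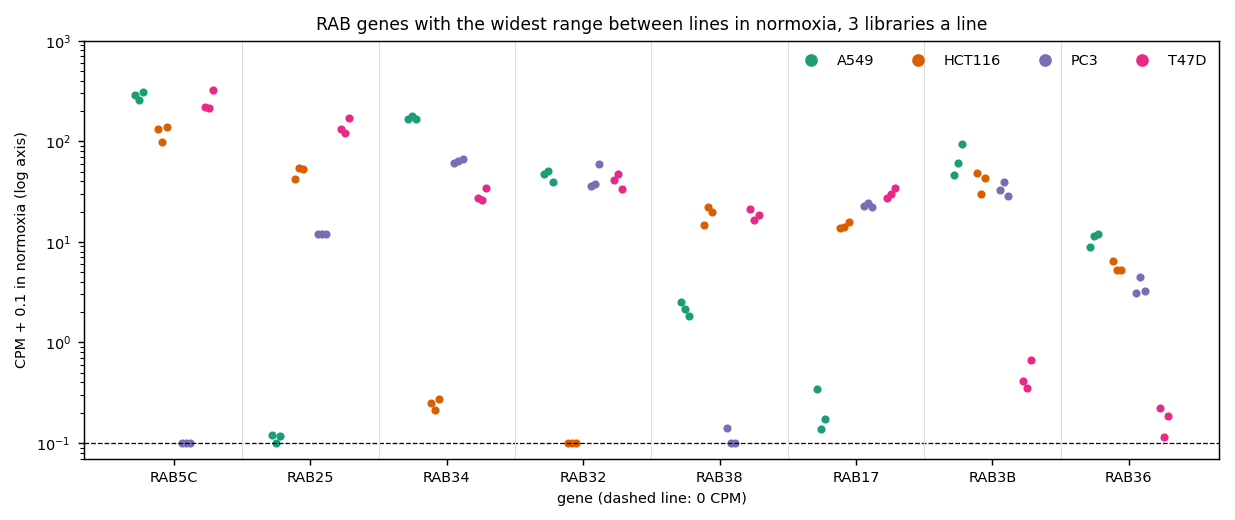
Points give the normoxic level (CPM + 0.1, log axis) in each library of the 8 RAB genes with the widest range between lines, colored by line, with 0 CPM as the dashed line. RAB5C in PC3 cells and RAB32 in HCT116 cells lie on the dashed line in all 3 libraries.

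The genes that act on RABs were described by a list of 127, made of 7 for prenylation and GDI, 44 GEFs, 38 GAPs and 38 effectors. Of those tested, 35 of 125 were upregulated and 6 downregulated in A549 cells, 43 and 16 of 125 in HCT116 cells, 30 and 7 of 123 in PC3 cells and 8 and 2 of 123 in T47D cells. The upregulated and downregulated shares of all genes were 17.6% and 17.8%, 23.3% and 27%, 16.6% and 15.7%, and 6.55% and 6.69%, so that the upregulated regulators in T47D cells were near the share of all genes. Of the 37 GAPs tested, 15 were up and 1 down in A549, 17 up and 2 down in HCT116, 13 up and 0 down in PC3 and 4 up and 0 down in T47D cells, to be read beside the same shares of all genes. With the GC and length correction, TBC1D2, TBC1D8, TBC1D9B, TBC1D10B, TBC1D16, TBC1D17, TBC1D25, EVI5L and SGSM1 lost their upregulated call in HCT116 cells. In PC3 cells TBC1D1, TBC1D2, TBC1D16, TBC1D22A and EVI5L lost it and RAB3GAP1 gained it. In A549 cells TBC1D10B lost it, and TBC1D8B, TBC1D19 and RAB3GAP1 gained it. In T47D cells TBC1D9B lost it. Their median log2 change was 0.32, 0.53, 0.22 and 0.20 in these lines, where the median of all genes lay between -0.03 and -0.01. The TBC-domain GAPs TBC1D9B, TBC1D17 and TBC1D22A were upregulated in all 4 lines. TBC1D22A went from 19.7 ± 2.18 to 41.3 ± 1.28 CPM in A549 cells (log2 1.08 ± 0.12) and from 14.4 ± 2.32 to 49.9 ± 6.65 CPM in HCT116 cells (1.77 ± 0.20).

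The RAB11 effector RAB11FIP5 and the RAB35 exchange factor DENND1A were also upregulated in all 4 lines. RAB11FIP5 rose by 0.85 ± 0.11, 1.41 ± 0.24, 0.44 ± 0.11 and 0.99 ± 0.21 on the log2 scale in A549, HCT116, PC3 and T47D cells. DENND1A rose by 0.62 ± 0.13, 1.31 ± 0.20, 0.42 ± 0.09 and 0.69 ± 0.19, and since the study named it from data that include these libraries, this is not independent evidence of its direction. With the GC and length correction DENND1A kept its call in A549 cells alone, and the calls of TBC1D9B in HCT116 and T47D, TBC1D17 in HCT116, TBC1D22A in PC3 and RAB11FIP5 in HCT116 and PC3 cells were lost. RIN3, an exchange factor of RAB5-type RABs, was upregulated in A549, HCT116 and PC3 cells, and kept the call in PC3 cells alone with this correction. In contrast RABGGTB, the catalytic subunit of RAB geranylgeranyl transferase, was the regulator downregulated in all 4 lines. Its level fell from 307 ± 108 to 77.7 ± 12.5 CPM in HCT116 cells (log2 -2.02 ± 0.27, adjusted p = 0.000146), and the changes were -0.85 ± 0.13, -0.90 ± 0.16 and -1.08 ± 0.26 in A549, PC3 and T47D cells. With the GC and length correction the decrease was called in HCT116 and PC3 cells and not in A549 and T47D cells. RABGGTA, the other subunit, named after its values were seen, was upregulated in HCT116 cells (0.69 ± 0.19), a call lost with the GC and length correction, and had no call elsewhere. TRAPPC2 and TRAPPC2L, subunits of the TRAPP exchange complexes, were downregulated in HCT116 and PC3 cells, and TRAPPC2 lost its PC3 call with the correction.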

How the data were processed

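Polyadenylated RNA was sequenced from 24 libraries. The authors trimmed reads with TrimGalore, aligned them to GRCh37 with HISAT2, removed fragments without a unique position with Picard and counted reads per UCSC gene with HTSeq in intersection-strict mode. The deposited values are raw counts per gene symbol, with no unnamed rows used. Unique-position counting lowers the counts of near copies such as RAB6C and RAB6A, and the strand setting is not given in the sources used here. Library totals were 22698584 to 62850747 counts (median 56109795).

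Here, counts were fitted in each line with edgeR 4.0.16 (R 4.3.3; quasi-likelihood test, TMM scaling, filterByExpr) over all genes, with Benjamini-Hochberg adjusted p values. Calls were made at adjusted p below 0.05 with a fold exceeding 1.2. The interaction of line and hypoxia and the normoxic differences between lines were fitted over the lines together. Levels are CPM with TMM factors over 24 libraries, and fold changes are those of the edgeR fit with its default prior count. A prior count of 2 was used in the log levels of the GC and length correction and of the comparisons between replicates. Alternatives were DESeq2 1.42.0, other scalings and filters, a correction of each library for GC content and transcript length (spline with 5 degrees of freedom, 93.3% of symbols matched to a transcript of GENCODE lifted to GRCh37), a replicate block and leaving out each library. The GC and length correction was fitted to levels scaled by total counts alone and added to the TMM scaling. Scripts were tested on simulated data.

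Same-numbered libraries of the 2 oxygen states deviated together in PC3 (r from 0.1185 to 0.1584) and T47D cells (0.2261 to 0.3262), so the numbers were read as pairs there. The calls given first still come from the fit without the block, and the genes whose call the block changed are named. Log2 changes and adjusted p values are those of the fit without the block unless stated otherwise. Numbers were read as pairs only where every r of a line exceeded 0.1. In A549 cells r was 0.2533, 0.1489 and 0.0505, and in HCT116 cells 0.3444, 0.2577 and 0.089. The numbers of these 2 lines were therefore not read as pairs, although most of their r values exceeded 0.1.

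The RAB genes and the lists were chosen with earlier results of these data known. Genes named with values were those called in the same direction in at least 3 lines or in opposite directions, the 4 largest called increases and decreases of each line with a mean count of at least 50, the 5 smallest interaction p values, the 8 widest ranges between lines and the 5 highest levels per kilobase. Regulators named were those called in the same direction in all 4 lines and the 3 largest mean increases and decreases among those called in 2 or more. RAB14, RAB15, RAB21, RAB35, RAB5A and other called genes outside this rule were named after their values were seen.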

Additional observations from a re-analysis of the deposited data

Results flagged for a closer look

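For 11 RAB genes the change in hypoxia differed between the 4 lines in the edgeR interaction test, which also called 18.3% of all genes. The adjusted p was 0.00142 for RAB40B, 0.00323 for RAB20, 0.00331 for RAB8B and 0.00892 for RAB31, and these 4 genes were called in each of the 24 fits without 1 library. RAB33B (0.0167) and RAB9A (0.0198) lost the call without HCT116 normoxia replicate 2 or HCT116 hypoxia replicate 3. RAB40C (0.0229), RAB26 (0.0344), RAB3B (0.0395), RAB3A (0.0427) and RAB11B (0.0459) lost it in 4 or more of these fits. With the GC and length correction the adjusted p was 0.00161 for RAB40B, 0.00211 for RAB20, 0.00194 for RAB31, 0.0387 for RAB8B and 0.0172 for RAB26, and the other 6 genes lay between 0.0512 and 0.11.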

How the results depend on the processing

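The upregulated and downregulated RAB genes numbered 14 and 4 in A549, 16 and 9 in HCT116, 10 and 3 in PC3 and 6 and 0 in T47D cells, with 11 genes in the interaction test. Leaving out 1 library gave 10 to 14 and 2 to 4 in A549, 13 to 17 and 6 to 9 in HCT116, 5 to 12 and 0 to 6 in PC3, 1 to 8 and 0 to 3 in T47D cells, 4 to 14 in the interaction test and 53 to 56 differences between lines in normoxia. The GC and length correction gave 22 and 0 in A549, 2 downregulated genes in HCT116 and 7 interactions. Together with the replicate block it gave 25 and 2 in A549, 2 downregulated in HCT116, 16 and 1 in PC3, 20 upregulated in T47D and 20 interactions. Total-count scaling gave 10 downregulated genes in A549, 6 in PC3 and 3 in T47D cells. One fit of all 24 libraries gave 8 and 1 in A549, 4 and 0 in PC3 and 14 and 3 in T47D cells. Over all genes it gave 1427 and 1182, 867 and 425, and 2231 and 1599. The main fit gave 2452 and 2476, 2237 and 2109, and 922 and 942 over all genes. A fold change over 1.5 gave 7 and 1 in A549 and 6 and 0 in PC3 cells. All genes then numbered 1398 and 1144, and 1019 and 892. An adjusted p under 0.01 gave 9 and 2 in A549, 4 and 0 in PC3, 2 upregulated in T47D cells and 4 interactions. Over all genes this left 1438 and 1296 in A549, 977 and 572 in PC3 and 308 upregulated in T47D cells. Interactions over all genes are not given here for this threshold, or for the correction together with the block. A change particular to RAB genes therefore cannot be read from those 2 interaction counts. DESeq2 gave 1 downregulated gene in T47D cells and 19 interactions, and 1 gene was downregulated in T47D cells without a filter. The replicate block gave 1 downregulated gene in T47D cells and 18 interactions, while in A549 cells it gave 13 and 4 (without RAB5A) and in HCT116 cells 17 and 9 (with RAB6B). The cause of these differences was not tested, apart from the stricter thresholds. Of 583 alternatives to the 53 named fold changes, 495 kept the direction and the call and 88 kept the direction only. Leaving out 1 library gave 247 and 71 of 318. None reversed. The alternatives with a fold change over 1.5 or an adjusted p under 0.01 reused the main fit, so their direction could not change. The named fold changes were chosen mostly for their calls in these same libraries. The absence of a reversal is therefore not independent support for their direction. At low counts, as for RAB3C and RAB44, no change could be tested at this depth.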

Other observations

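The gene order around RAB genes that were near 0 in a line was looked at after their values were seen. In PC3 cells, 10 genes adjacent to each other in the count files on chromosome 17 (GRCh37 17:40253422-40540558), which are DHX58, KAT2A, HSPB9, RAB5C, KCNH4, HCRT, GHDC, STAT5B, STAT5A and STAT3, had no count in any of the 6 libraries. Of these, KAT2A, RAB5C, GHDC, STAT5B and STAT3 had over 1 CPM on average in each other line, with STAT3 at 318, 65.4 and 197 CPM and KAT2A at 82.4, 50.9 and 64.7 CPM in A549, HCT116 and T47D cells. ATP6V0A1, the next gene with counts listed on the side of STAT3, had at most 13 counts in a PC3 library, and COASY farther along had 106 CPM. For RAB32 in HCT116 cells no neighbouring gene without counts was found next to it.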
